A study of Homo sapiens with 12 samples.

Results

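HEK293 Flp-In cells whose own TAF5 had been depleted by RNA interference were compared according to the TAF5 protein they were given back, the isoform lacking exon 8 (TAF5-∆E8, here ΔE8) or the full-length protein (TAF5-FL, here FL). The comparison was defined by the sample labels and used 6 of the 12 libraries of the series, 3 ΔE8 and 3 FL. HEK293 Flp-In is a human embryonic kidney line with a single engineered genomic site that accepts a transgene. Cells of both groups were transfected with the same siRNA against TAF5, and after 24 h the siRNA-resistant transgene was induced with doxycycline for 48 h before lysis. The labels give a different doxycycline dose for each transgene, so isoform, induction dose and transgene line cannot be told apart in this comparison. The other 6 libraries, used here for the spread between libraries and for side-by-side levels, were 3 with a non-targeting siRNA (siNT) and 3 with the TAF5 siRNA and no transgene named (siTAF5), and the treatment label of all 12 names both siRNA and doxycycline. Polyadenylated RNA was sequenced, and the question was whether exon 8 of TAF5 bears on gene expression.

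TFIID is the general transcription factor that recognises core promoters of protein-coding genes and nucleates assembly of the RNA polymerase II initiation complex. It is built from the TATA-binding protein TBP and TBP-associated factors (TAFs), several of which pair through histone folds. TAF5 is a scaffold of its core: the amino-terminal part of the protein packs against other TAFs, and the carboxy-terminal part folds into a WD40 propeller, which the chaperonin CCT folds and hands on to the histone-fold pair of TAF6 and TAF9.

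Exon 8 is shown because its absence is the only designed difference between the proteins. In the annotated TAF5 transcript of 11 exons it lies on the plus strand of chromosome 10 at chr10:103385326-103385490 (GRCh38, GENCODE release 29). It holds 165 bases, all coding, which is 6.88% of the 2400 coding bases. Because 165 is 55 codons, its loss keeps the reading frame and removes 55 of 800 residues, with the exon touching codons 555 to 610, within the WD40 part. The capitals below mark exon 8 between the last 30 bases of exon 7 and the first 30 of exon 9, and, in the skipped form, the start of exon 9. This is the reference sequence: the transgenes are siRNA-resistant and may differ from it.
Exon 8 in context: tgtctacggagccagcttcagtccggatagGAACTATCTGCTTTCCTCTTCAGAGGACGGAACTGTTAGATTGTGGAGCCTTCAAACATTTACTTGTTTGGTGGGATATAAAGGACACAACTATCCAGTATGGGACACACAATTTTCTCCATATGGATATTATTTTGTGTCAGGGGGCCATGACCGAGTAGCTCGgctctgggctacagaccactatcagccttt
Exon 7 joined to exon 9: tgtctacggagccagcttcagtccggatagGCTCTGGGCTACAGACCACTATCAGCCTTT

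Library totals ranged from 41.8 to 62.5 M estimated counts over the 12 libraries, which is also the range of the 6 compared here. Cytosolic ribosomal protein genes took 7.48% to 7.71% of the counts in FL and 6.82% to 7.06% in ΔE8, and mitochondrially encoded genes 0.767% to 0.793% and 0.734% to 0.818%. Pairs of replicates differed by more than counting noise (chi-square per degree of freedom 2.76 to 3.68 within FL and ΔE8), so no library stood for another. The labels do not tell separate cultures from repeated libraries, and p-values therefore measure a spread that may be technical.

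TAF5 itself stood at 103, 106 and 107 CPM (counts per 1e+06 counts of a scaled library) in the FL libraries and at 87.6, 87.5 and 88.9 in ΔE8. Knockdown with no transgene named (siTAF5) left 6.13, 7.35 and 6.68 CPM. The groups did not overlap, and ΔE8 was 1.2-fold lower (log2 difference -0.26, SE 0.031, edgeR adjusted p = 2.12e-06). With equal numbers of molecules, the shorter coding sequence alone would lower the counts by 0.10 on the log2 scale. Both groups stood above the siNT level of 39.2, 40.5 and 40.2 CPM, FL by 1.40 and ΔE8 by 1.14 on the log2 scale (comparisons in which 54.6% and 62.2% of all genes tested were called). Counts per gene do not resolve exon 8, so they do not check which of these groups carried which isoform. The TAF5 gene overlaps ATP5MK on the opposite strand, and the sources used here do not give the counting's strand setting, so overlapping genes on opposite strands may share reads. Isoform and TAF5 RNA level cannot be told apart in what follows.

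Many transcripts of histones and p53 targets were higher in ΔE8 than in FL, as were the single genes POLR2A, HEXIM1 and NEAT1. Most of those tested for ribosomal proteins, small nucleolar RNA hosts, splicing factors and the ATF4 amino acid response were lower. Of 19424 genes tested, 3359 were higher (17.3%) and 3819 lower (19.7%), 37.0% in either direction, called where the Benjamini-Hochberg adjusted p of edgeR's quasi-likelihood test was below 0.05. Most differences were small: the median size of the called log2 differences was 0.22, with quartiles of 0.14 and 0.36, and 89.9% of called genes differed by less than 1.5-fold. At least 1.5-fold were 392 higher genes (2.02%) and 336 lower genes (1.73%), and at least 2-fold 137 higher (0.705%) and 93 lower (0.479%). The 3 libraries of each group did not overlap for 45.7% of genes. The largest and the most abundant changes named below were picked among such genes, so absence of overlap was required of them. Under a test against a minimum change of 1.2-fold, 422 genes were higher and 467 lower. Scaling by library totals alone gave 4072 higher genes and 3184 lower. Upper-quartile factors gave 3168 higher and 4130 lower. In bulk RNA, a changed share of cells in some state and a changed amount of RNA per cell cannot be told apart.

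**Figure D1:**
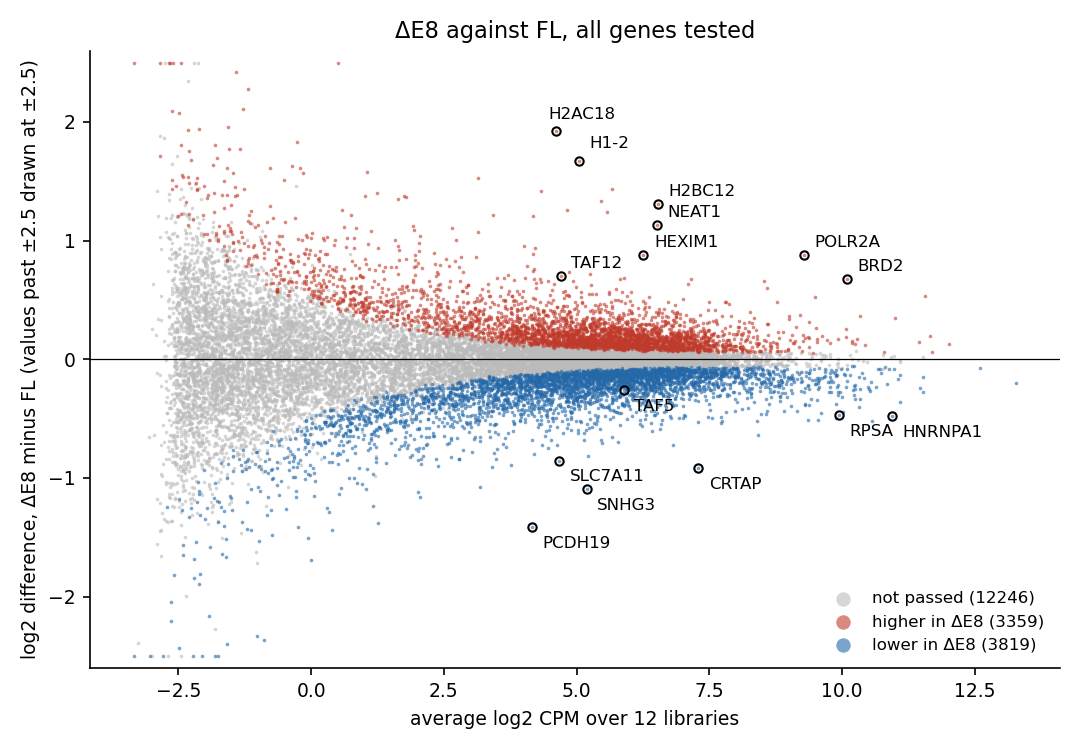
Log2 difference between ΔE8 and FL (vertical axis) against the average log2 CPM over 12 libraries (horizontal axis), 1 point per gene tested, red for the 3359 genes higher in ΔE8, blue for the 3819 lower and grey for the rest. Most coloured points lie close to 0, while histone genes such as H2AC18 (1.92) and H1-2 (1.67), the abundant POLR2A (0.88) and, below, PCDH19 (-1.42) stand away from the bulk.

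Histone genes took 10 of the 12 largest rises among genes averaging 2 or more in log2 CPM, and 8 of the 10 are coding genes. H1-2, a linker histone that compacts nucleosome arrays (chr6:26055740-26056470, hg38), had 13.1, 11.5 and 11.5 CPM in FL and 39.5, 37.8 and 38.4 in ΔE8. ΔE8 was 3.18-fold above FL (log2 1.67, SE 0.046, edgeR adjusted p = 2.84e-15). The siNT libraries lay between them, at 26.2, 25.01 and 25.7 CPM, and siTAF5 was highest, at 56.4, 55.03 and 55.8. H2BC12, a gene for the core histone H2B, had 48.9, 45.1 and 50.9 CPM in FL and 120.5, 119 and 119 in ΔE8 (log2 1.30, SE 0.038, edgeR adjusted p = 3.81e-15). H2AC18, a gene for core histone H2A with the largest log2 difference of the genes named here, rose from 6.36, 5.81 and 7.93 to 24.6, 24.1 and 27.5 CPM (log2 1.92, SE 0.085, edgeR adjusted p = 3.23e-12). The other coding genes among the 12 were H2BC11 (1.52), H4C15 (1.43), H2AC19 (1.42), H4C14 (1.34) and H2AC6 (1.21), given as log2 differences. H2AC18 and H2AC19 encode the same protein, as do H4C14 and H4C15, and each pair is nearly identical in sequence, so the split of reads within a pair is uncertain. H2BC19P (1.26) and H2BC20P (1.24), pseudogenes that overlap each other on opposite strands, can share reads with the coding H2B genes.

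Of 34 listed histone genes 27 passed the filter on low counts. Of these 17 were higher in ΔE8 (63%) and 0 lower, beside 17.3% and 19.7% of all genes tested. Their median log2 difference was 0.89, beside -0.0089 over all genes tested. At an unadjusted p under 0.05 the same numbers were 17 and 0, and DESeq2 and limma-voom each called 16 higher and 0 lower. In siTAF5 against siNT, a comparison with no library in common with this one, 18 of the 27 were higher and 0 lower, beside 24.7% and 25.0% of all genes tested and 49.7% in either direction. The 10 that did not pass included H1-5 (0.94), H1-3 (0.88) and H2AC20 (-0.19), as log2 differences. Most histone messages end in a stem-loop without a tail, and the libraries were made from polyadenylated RNA, so these levels describe the polyadenylated share of histone transcripts.

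**Figure D2:**
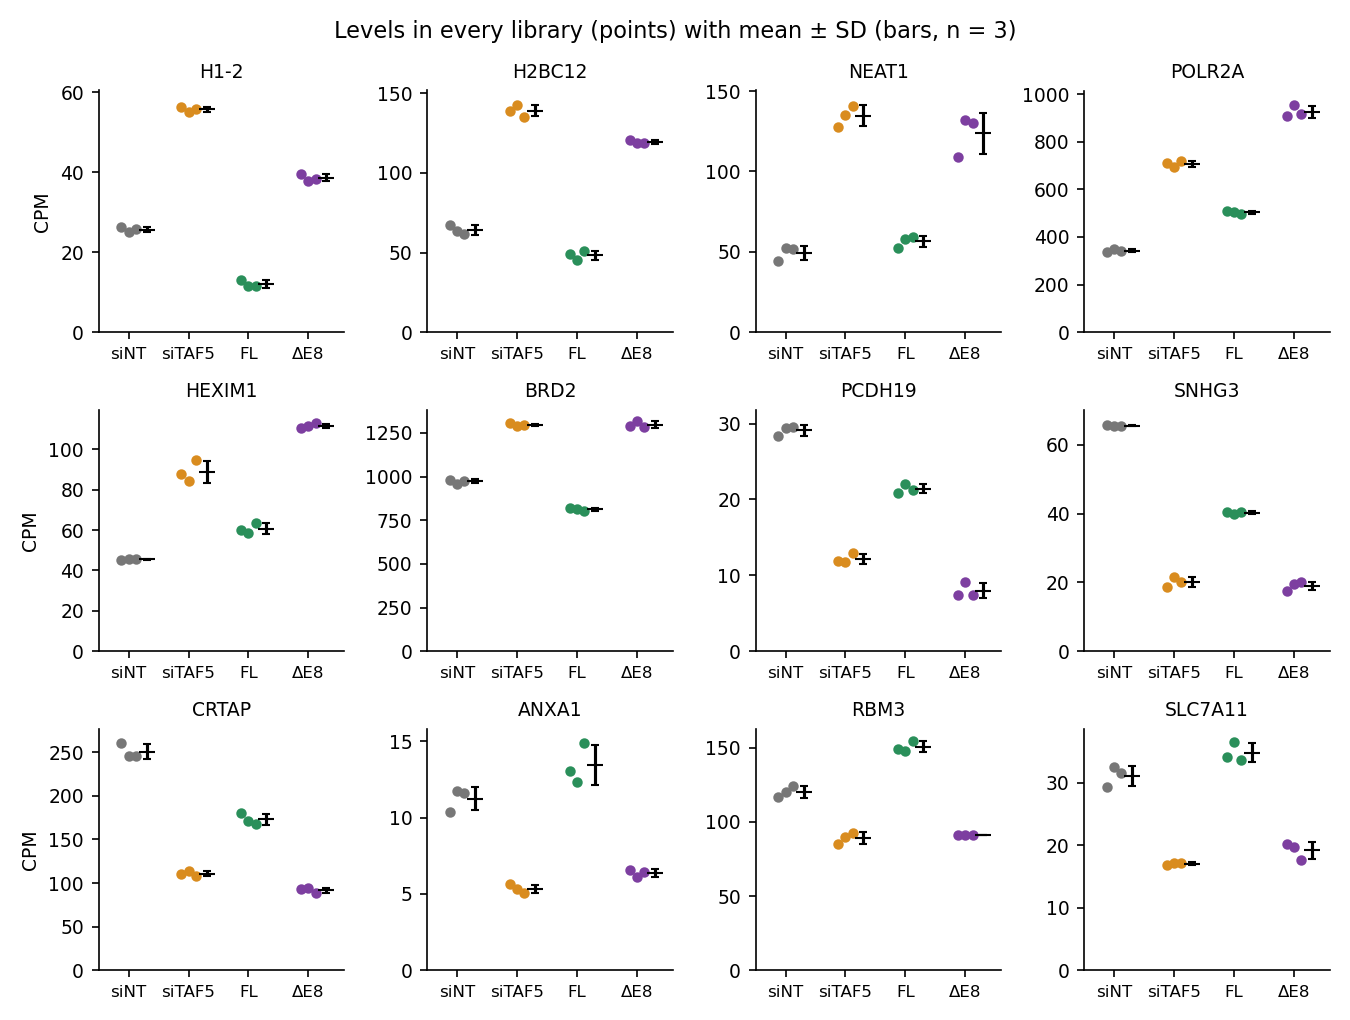
Levels of 12 genes in CPM (vertical axes, from 0) in each library of siNT, siTAF5, FL and ΔE8 (horizontal axis), with points for libraries and bars for mean ± SD (n = 3). In the first 6 panels the ΔE8 points lie above all FL points, for example POLR2A at 908.5 to 954.5 against 497.7 to 509.6 CPM, and in the last 6 below them, for example CRTAP at 88.5 to 93.9 against 167 to 180 CPM.

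TFIID meets DNA at the core promoter, so promoter sequences were searched for the letters TATAAA on the sense strand within the 50 bases before the start. RefSeq promoters (GRCh38.p14) were matched for 11596 of 14127 protein-coding genes tested (82.1%). TATAAA was present in 2.03% of all matched promoters, 2.84% of those of higher genes, 1.34% of those of lower genes and 2.03% of the rest. Of the listed histone genes 14 of 24 matched promoters held it (58.3%). Read the other way, 28.5% of the 235 genes with TATAAA were higher and 16.2% lower, beside 20.2% and 24.7% of the 11361 without; leaving out the listed histones, 25.3% and 17.2% of 221. Genes with TATAAA had a lower median level in FL (5.44 CPM) than those without (31.9 CPM), and the part of level in these shares was not tested. The letters GGGCGG or CCGCCC, which do not overlap TATAAA, occurred in 69.7% of all matched promoters, 73.9% of higher, 69.4% of lower and 29.2% of listed histone promoters, anywhere in the 300 bases from 250 before to 50 after the start.

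The 60 bases before the start of 4 higher histone genes, 2 other higher genes and 3 lower genes are shown, since the shares above differ between such groups; capitals mark TATAAA where it occurs. The windows are, in the order printed and on the strand of the gene, chr1:149842751-149842810, chr6:27132796-27132855, chr6:27146859-27146918, chr6:26056471-26056530, chr17:45148415-45148474, chr17:7484306-7484365, chr9:73151805-73151864, chr3:33113954-33114013 and chr3:39406660-39406719. H1-2, POLR2A, CRTAP and RPSA lack these 6 letters in this window, which says nothing of TFIID binding there. TATAAA also occurs in a lower gene, ANXA1.
H2AC18: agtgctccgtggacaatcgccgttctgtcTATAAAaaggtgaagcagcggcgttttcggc
H2BC11: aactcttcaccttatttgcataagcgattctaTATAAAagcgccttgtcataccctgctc
H2BC12: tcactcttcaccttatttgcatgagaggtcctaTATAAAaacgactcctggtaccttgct
H1-2: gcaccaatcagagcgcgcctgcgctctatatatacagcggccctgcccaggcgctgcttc
HEXIM1: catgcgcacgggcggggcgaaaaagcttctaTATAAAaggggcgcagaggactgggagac
POLR2A: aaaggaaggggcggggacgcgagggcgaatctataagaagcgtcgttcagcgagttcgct
ANXA1: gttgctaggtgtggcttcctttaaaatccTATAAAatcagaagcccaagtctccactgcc
CRTAP: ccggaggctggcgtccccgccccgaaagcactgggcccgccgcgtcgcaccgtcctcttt
RPSA: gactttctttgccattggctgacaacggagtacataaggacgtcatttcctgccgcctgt

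Outside histones, the largest rises were in TLCD1 and NEAT1. NEAT1, the noncoding RNA that scaffolds nuclear paraspeckles, had 52.6, 57.9 and 59.2 CPM in FL and 109, 132 and 129.9 in ΔE8 (log2 1.13, SE 0.066, edgeR adjusted p = 1.08e-10). FL was slightly above the siNT levels of 44.3, 52.5 and 51.5 CPM (log2 0.19, edgeR adjusted p = 0.028). TLCD1, a gene for a membrane lipid protein, rose by 1.21 on the log2 scale. It lies across RPL23A, a ribosomal protein gene on the opposite strand at 1334 CPM in FL with a log2 difference of -0.33. The part of shared reads in the TLCD1 counts was not tested. Of 9 nuclear-retained noncoding RNAs and paraspeckle genes tested 3 were higher and 3 lower (33.3% each), beside 17.3% and 19.7% of all genes tested. MALAT1, a noncoding RNA of nuclear speckles, was higher (0.76), while the paraspeckle proteins NONO (-0.27) and SFPQ (-0.14) were lower.

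Most abundant among genes at least 1.5-fold higher were BRD2, POLR2A, SLIT2, SOX4, HES4 and JUND. POLR2A, the catalytic largest subunit of RNA polymerase II (chr17:7484366-7514616, hg38), had 509.6, 505 and 498 CPM in FL and 908, 954 and 915 in ΔE8. ΔE8 was highest of all 4 groups, since siTAF5 had 709.5, 694 and 717 and siNT 338, 348 and 341 CPM. The difference between the isoforms was 1.84-fold (log2 0.88, SE 0.023, edgeR adjusted p = 2.76e-15). BRD2, a bromodomain reader of acetylated histones, rose from 819.9, 814 and 801 to 1290, 1318 and 1283 CPM (log2 0.68, SE 0.02, edgeR adjusted p = 3.81e-15), with ΔE8 close to the siTAF5 libraries. SLIT2, a secreted axon guidance cue (0.66), the transcription factor SOX4 (0.60), the Notch-responsive repressor HES4 (0.68) and the AP-1 subunit JUND (0.64) followed.

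Among TFIID subunits other than TAF5, 8 of 16 were higher in ΔE8 (50%) and 1 lower (6.25%), beside 17.3% and 19.7% of all genes tested. Their median log2 difference was 0.096. TAF12, the histone-fold partner of TAF4, had 21, 20.1 and 21.8 CPM in FL and 33.7, 33.1 and 35.7 in ΔE8. The groups were well apart, 1.62-fold (log2 0.70, SE 0.042, edgeR adjusted p = 1.74e-10). TAF4, its partner, had 49.6, 48.9 and 49.8 CPM in FL and 61.3, 61.1 and 64.5 in ΔE8, also without overlap (log2 0.33, SE 0.03, edgeR adjusted p = 4.05e-08). TAF6, which pairs with TAF9 and contacts TAF5, was higher by 0.28, the TAF4 paralog TAF4B by 0.19, the chromatin reader TAF3 by 0.17, TAF9B by 0.15, TAF11 by 0.13 and TAF1, the largest subunit, by 0.12 on the log2 scale. TAF11 (adjusted p = 0.0303) did not pass without FL replicate 1, FL replicate 2, ΔE8 replicate 1 or ΔE8 replicate 3, with edgeR adjusted p of 0.0645 to 0.131. TAF8, which brings TAF10 into the complex, was the lower member, with 47.7, 48.2 and 48.8 CPM in FL and 41.9, 39.8 and 37.5 in ΔE8 (log2 -0.27, edgeR adjusted p = 1.28e-05). TBP (0.051), TAF2 (0.072), TAF7 (-0.045), TAF9 (0.046), TAF10 (-0.015), TAF13 (0.017) and TAF15 (0.058) did not pass. TAF2 passed with scaling by library totals, a minimum count of 50, or without FL replicate 3 or ΔE8 replicate 3 (edgeR adjusted p 0.0228 to 0.0432). TAF15 passed with library totals (0.0213) or without FL replicate 1 (edgeR adjusted p 0.0130). Against a minimum of 1.2-fold 1 member stayed higher. TAF10 and the opposite-strand ILK overlap, and TAF9 shares its locus with AK6.

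CCT subunits, which fold the TAF5 propeller, differed little. Of 8, CCT7 was higher (0.11) and 4 were lower: CCT3 (-0.17), CCT6A (-0.12), CCT2 (-0.11) and TCP1 (-0.091), as log2 differences. These shares were 12.5% higher and 50% lower, beside 17.3% and 19.7% of all genes tested. TCP1 was not called with scaling by library totals (edgeR adjusted p 0.0519) or without ΔE8 replicate 2 (0.117). CCT4, CCT5 and CCT8 lay between -0.049 and -0.016, and none of the 8 passed against a minimum of 1.2-fold.

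**Figure D3:**
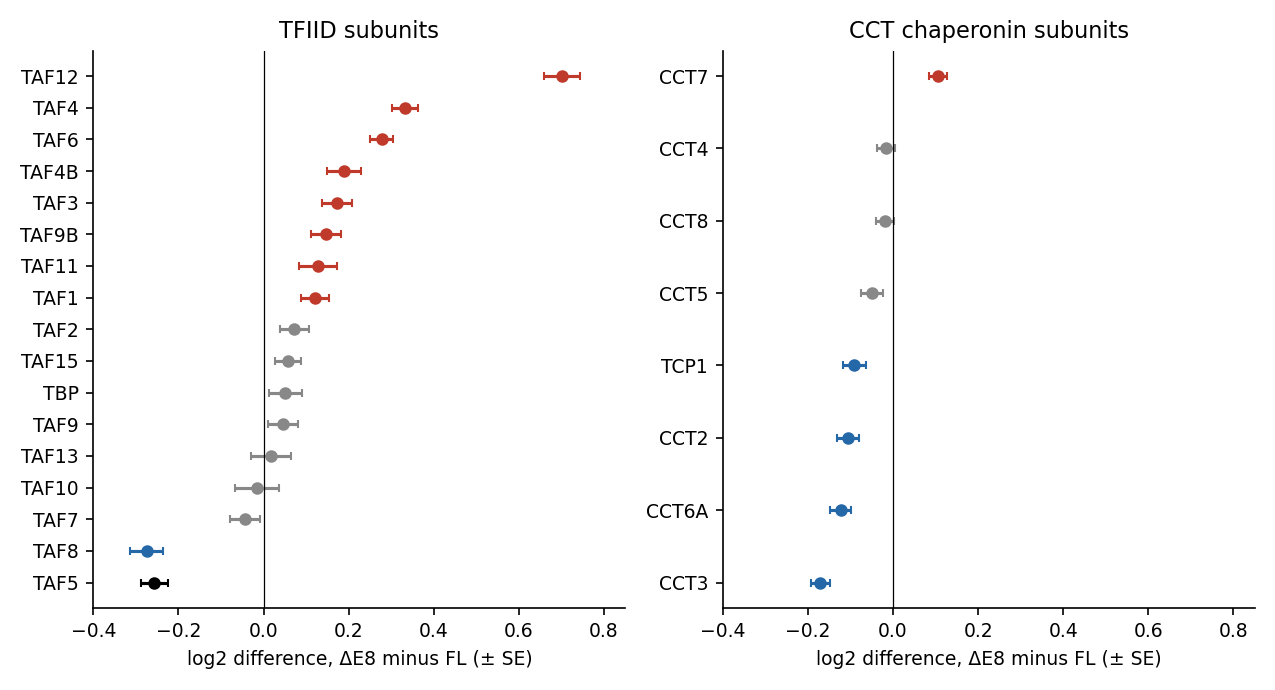
Log2 difference between ΔE8 and FL (horizontal axis, ± SE of the fit) for TAF5 (black), the other TFIID subunits and the CCT subunits, red where higher, blue where lower and grey where the test was not passed. TAF12 at 0.70 lies apart from the other subunits, and CCT subunits lie between -0.17 and 0.11.

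Other parts of the transcription machinery were split. Of 29 genes for RNA polymerase II subunits and general factors 4 were higher (13.8%, beside 17.3% of all genes tested) and 3 lower (10.3%, beside 19.7%; median 0.018), the higher ones being POLR2A, the TFIIA subunit GTF2A1 (0.42), the small polymerase subunit POLR2L (0.29) and the TFIIH helicase ERCC2 (0.091). With scaling by library totals 8 were higher and 1 lower. Of 28 P-TEFb and elongation genes 8 were higher and 6 lower. HEXIM1, the inhibitor of the elongation kinase P-TEFb, had 60.01, 58.6 and 63.6 CPM in FL and 111, 111 and 113 in ΔE8. ΔE8 exceeded FL and both groups with no transgene named, siTAF5 at 87.6, 84.03 and 94.6 and siNT at 45.1, 45.7 and 45.6 CPM (log2 0.88, SE 0.037, edgeR adjusted p = 1.94e-12 for ΔE8 against FL). Its paralog HEXIM2 (0.36) and the cap enzyme of 7SK RNA, MEPCE (0.23), were also higher, whereas LARP7 (-0.40), which stabilises 7SK, and the histone chaperone SSRP1 (-0.19) were lower. The kinase CDK9 did not pass (0.078). Mediator, which bridges activators and polymerase, had 8 of 33 higher and 4 lower (13 and 0 with scaling by library totals), including MED29 (0.31), CDK19 (0.32), MED23 (0.21) and MED12 (0.20). SAGA, ATAC and TIP60 coactivator genes had 4 of 30 higher (13.3%) and 6 lower (20%), shares near those of all genes tested (17.3% and 19.7%). Called members included the acetyltransferase KAT5 (-0.45), ING3 (-0.50), TADA1 (-0.23) and BRD8 (0.28). For RNA polymerases I and III 7 of 34 were higher (20.6%) and 11 lower (32.4%). GTF3A (-0.40), which binds 5S RNA genes, and the snoRNA host TAF1D (-0.50) were lower and POLR3GL (0.45) higher.

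Stress and growth-arrest transcripts of the p53 pathway were mostly higher: 15 of 29 p53 targets were higher (51.7%) and 4 lower (13.8%), median 0.13. Over all genes tested these shares were 17.3% and 19.7%. POLH, a translesion polymerase, had 32.5, 36.3 and 33.7 CPM in FL and 50.1, 51.2 and 48.3 in ΔE8 (log2 0.55, SE 0.042, edgeR adjusted p = 4.86e-09). CDKN1A, the cell cycle inhibitor p21, had 94.9, 90.6 and 93.6 CPM in FL and 119.9, 125 and 125 in ΔE8 (log2 0.40, SE 0.03, edgeR adjusted p = 3.56e-09). Neither gene overlapped between groups, and for CDKN1A the FL libraries were near the siNT levels of 96.3, 90.3 and 92.2 CPM. XPC, a DNA damage sensor (0.34), the death receptor TNFRSF10B (0.27) and TP53INP1 (0.53) were also higher. The 4 lower targets were CCNG1 (-0.27), the p53 ubiquitin ligase MDM2 (-0.20), the apoptosis effector BAX (-0.18) and SESN2 (-0.13), which is in the ATF4 list too. Against a minimum of 1.2-fold 4 of the 29 stayed higher. In siTAF5 against siNT 20 of the 29 were higher and 3 lower, beside 24.7% and 25.0% of all genes tested.

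Immediate early genes, the first transcripts induced by growth signals, had 14 of 28 higher (50%) and 8 lower (28.6%) in ΔE8, median 0.14. Over all genes tested these shares were 17.3% and 19.7%. JUNB had 24.6, 23.3 and 23.5 CPM in FL and 40.6, 38.98 and 38.3 in ΔE8 (log2 0.72, SE 0.051, edgeR adjusted p = 1.62e-09), and JUND, JUN (0.34), the phosphatase gene DUSP1 (0.48), EGR1 (0.49) and FOS (0.41) were higher as well. The lower ones were KLF2 (-0.56), PHLDA1 (-0.39), KLF6, NR4A1, DUSP5 and the feedback inhibitors of ERK signalling DUSP6 (-0.37), SPRY4 (-0.29) and SPRY2 (-0.17). In siTAF5 against siNT this list had 9 higher and 7 lower, beside 24.7% and 25.0% of all genes tested. Whether the comparisons differ was not tested.

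Chaperone and organelle lists moved in both directions, beside 17.3% of all genes tested higher and 19.7% lower. Heat shock genes had 6 of 21 higher and 8 lower: the inducible chaperone HSPA1B rose from 2439, 2390 and 2593 to 3547, 3548 and 3673 CPM (log2 0.54, edgeR adjusted p = 4.05e-12) and the autophagy receptor SQSTM1 was higher (0.48), while the constitutive HSP90AB1 (-0.21) and the mitochondrial HSPD1 (-0.30) were lower. HSPA1B is nearly identical to HSPA1A, so reads may be split between them. Lysosome and autophagy genes had 11 of 25 higher (44%) and 5 lower (20%), with the glycosidases GLA (0.46) and GAA (0.32) higher. Unfolded protein response genes had 7 of 22 higher (31.8%) and 5 lower (22.7%), among them the lectin chaperones CALR (0.17) and CANX (-0.23), which moved apart. BCL2 family genes had 3 of 17 higher (17.6%, near the share of all genes tested) and 6 lower (35.3%). MCL1 (0.22) and BCL2L13 (0.39) were higher, and the death-promoting PMAIP1 (-0.41) and the survival protein BCL2L2 (-0.32) lower. Proteasome subunits had 3 of 31 higher and 8 lower. In siTAF5 against siNT 16 were higher and 4 lower, beside 24.7% and 25.0% of all genes tested.

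PCDH19, an X-linked protocadherin of cell adhesion (chrX:100291644-100410273, hg38), showed the largest fall of the genes named. It had 20.9, 22.04 and 21.3 CPM in FL and 7.43, 9.12 and 7.41 in ΔE8 (log2 -1.42, SE 0.065, edgeR adjusted p = 5.83e-12). CRTAP, a component of the collagen prolyl hydroxylation complex (chr3:33114014-33147773, hg38), was both abundant and strongly lower, with 179.9, 172 and 167 CPM in FL and 92.9, 93.9 and 88.5 in ΔE8 (log2 -0.91, SE 0.033, edgeR adjusted p = 1.73e-13). For both genes ΔE8 was the lowest of the 4 groups and siNT the highest, at 28.3, 29.5 and 29.5 and 261, 246 and 246 CPM. ANXA1, a calcium-dependent membrane-binding annexin, had 13.1, 12.4 and 14.9 CPM in FL and 6.60, 6.09 and 6.46 in ΔE8 (log2 -1.07, SE 0.075, edgeR adjusted p = 1.44e-09). Others among the 12 were the interferon-inducible tether BST2 (-1.16), the lymphoid zinc finger gene IKZF3 (-0.91), the vesicle GTPase RAB3A (-0.90), DERL3 of endoplasmic reticulum degradation (-0.89), the matrix glycoprotein SPARC (-0.88), the cystine transporter SLC7A11 (-0.85), CALML4 (-0.85) and GLYCTK (-1.11). GLYCTK lies across WDR82 on the opposite strand (log2 difference 0.031), at 171 CPM in FL against 5.64 for GLYCTK, and is uncertain. The same holds for DERL3, CALML4 and RAB3A, which overlap the more abundant SMARCB1 (-0.094), PIAS1 (-0.0003) and MPV17L2 (-0.037) on the opposite strand. The part of shared reads in these counts was not tested. BST2 was low, at 1.23 to 1.46 CPM in ΔE8 and 2.46 to 3.56 in FL.

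Most abundant among genes at least 1.5-fold lower were SNHG29, CRTAP, RBM3, FANCD2, HOXA13 and RABGGTB. RBM3, a cold-inducible RNA-binding protein, had 149.5, 148 and 155 CPM in FL and 91.1, 91.5 and 91.2 in ΔE8 (log2 -0.72, SE 0.032, edgeR adjusted p = 2.91e-12). FL was above siNT (116, 120.3 and 124 CPM) and ΔE8 was at the siTAF5 levels (84.9, 89.6 and 92.6 CPM). FANCD2, a DNA crosslink repair protein (-0.59), the posterior homeobox gene HOXA13 (-0.60) and RABGGTB, a Rab prenylation subunit whose introns host snoRNAs (-0.70), were lower.

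Genes of ribosome production were mostly lower, beside 19.7% of all genes tested lower and 17.3% higher. Small nucleolar RNA host genes, whose introns release guide RNAs for ribosomal RNA modification, had 13 of 19 lower (68.4%) and 1 higher (5.26%), median -0.28. SNHG3 (chr1:28505980-28510892, hg38) had 40.4, 39.9 and 40.6 CPM in FL and 17.6, 19.4 and 19.96 in ΔE8, and ΔE8 was level with siTAF5 (18.7, 21.6 and 19.97 CPM; log2 -1.09, SE 0.047, edgeR adjusted p = 2.62e-12 against FL). It overlaps RCC1 on the same strand, whose log2 difference was -0.12. SNHG29 had 399.5, 382 and 381 CPM in FL and 249, 245 and 252 in ΔE8 (log2 -0.64), with DANCR (-0.71) and SNHG16 (-0.50) lower too. SNHG15 was the higher one (0.14), and GAS5 (0.061) and SNHG1 (-0.028) did not pass. Cytosolic ribosomal protein genes had 68 of 78 lower (87.2%) and 3 higher (3.85%), median -0.20. In siTAF5 against siNT 70 were lower and 2 higher, beside 25.0% and 24.7% of all genes tested. RPSA had 1140, 1117 and 1109 CPM in FL and 808, 794 and 828 in ΔE8 (log2 -0.47, SE 0.022, edgeR adjusted p = 7.2e-12), and RPS25 (-0.52), RPS23 (-0.46) and RPL10 (-0.45) were lower as well. These differences were mostly below 1.2-fold: against that minimum 12 of the 78 stayed lower. Pseudogenes of ribosomal protein genes are many and similar, which leaves the level of a single member uncertain. Ribosome biogenesis factors had 17 of 33 lower (51.5%) and 2 higher (6.06%). Among the lower ones were the nucleolar GNL3 (-0.35), NHP2 (-0.31), RRS1 (-0.29) and PPAN (-0.23). Against a minimum of 1.2-fold 1 of the 33 stayed lower.

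Splicing factor genes had 27 of 40 lower (67.5%) and 1 higher (2.5%), median -0.13. Over all genes tested these shares were 19.7% and 17.3%. HNRNPA1, an abundant RNA-binding protein of exon skipping, had 2379, 2235 and 2279 CPM in FL and 1702, 1635 and 1602 in ΔE8, with no overlap (log2 -0.48, SE 0.026, edgeR adjusted p = 3.99e-11). In this gene ΔE8 was level with siTAF5 (1720, 1709 and 1647 CPM) and FL was near siNT (2176, 2187 and 2246 CPM). HNRNPD (-0.32), SNRPD2 of the spliceosomal core ring (-0.31) and PRPF8 of its catalytic centre (-0.27) followed. In siTAF5 against siNT the list had 15 lower and 9 higher, beside 25.0% and 24.7% of all genes tested. Whether the comparisons differ was not tested. Against a minimum of 1.2-fold 1 of the 40 stayed lower.

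Amino acid response genes were mostly lower, 22 of 33 (66.7%) with 2 higher (6.06%), median -0.19. Over all genes tested these shares were 19.7% and 17.3%. Against a minimum of 1.2-fold 6 of the 33 stayed lower. ATF4, the transcription factor of the response, had 697, 643 and 657 CPM in FL and 499, 493 and 487 in ΔE8, near siTAF5 (463, 457 and 441 CPM) and without overlap with FL (log2 -0.43, SE 0.028, edgeR adjusted p = 3.65e-10). SLC7A11 had 34.1, 36.5 and 33.7 CPM in FL and 20.2, 19.7 and 17.5 in ΔE8 (log2 -0.85, edgeR adjusted p = 1.48e-10), and asparagine synthetase ASNS (-0.52), the amino acid carrier SLC7A5 (-0.49) and PSAT1 of serine synthesis (-0.48) were lower. ATF3 (0.31) and DDIT4 (0.42) were the higher members. In siTAF5 against siNT 23 were lower and 4 higher, beside 25.0% and 24.7% of all genes tested.

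Metabolic lists held genes of both directions, beside 17.3% of all genes tested higher and 19.7% lower. Nuclear-encoded oxidative phosphorylation genes had 13 of 50 higher (26%) and 9 lower (18%), with NDUFB10 (0.30), SDHA (0.27) and CYC1 (0.24) higher and ATP5F1A (-0.18) lower. Of 13 mitochondrially encoded genes edgeR called 0 in either direction, also at an unadjusted p under 0.05, and so did DESeq2 and limma-voom; fitting the 6 libraries alone called 3 lower. On knockdown 10 of these 13 were lower and 0 higher, beside 25.0% and 24.7% of all genes tested. Whether the comparisons differ was not tested. Glycolysis and hypoxia genes were split evenly, 9 higher and 9 lower of 31, such as TPI1 (0.25), ADM (0.40) and PFKL (0.19) higher and ENO1 (-0.15) lower. The log2 differences of all members tested ran from -0.27 to 3.55, and the genes at these ends are not named here. Cholesterol synthesis genes had 9 of 23 higher (39.1%) and 7 lower (30.4%). INSIG1, a sterol sensor partner (0.22), and CYP51A1 (0.15) were higher and SQLE (-0.48) and EBP (-0.20) lower.

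Cell cycle genes were more often lower than higher. G1/S and DNA replication genes had 17 of 35 lower (48.6%) and 7 higher (20%), and G2/M genes 15 of 30 lower (50%) and 5 higher (16.7%). Over all genes tested these shares were 19.7% and 17.3%. Against a minimum of 1.2-fold 1 G1/S and 1 G2/M gene stayed lower, and 1 G1/S gene higher. E2F1, a driver of S phase genes, had 105, 100.3 and 97.2 CPM in FL and 76.2, 72.8 and 74.97 in ΔE8 (log2 -0.43, SE 0.031, edgeR adjusted p = 1.56e-09). RRM2, which makes deoxynucleotides, went the other way, with 290.1, 298 and 311 CPM in FL and 402, 393 and 387 in ΔE8 (log2 0.40, edgeR adjusted p = 4.2e-10). Neither overlapped between groups. UHRF1 (-0.25), POLA1 (-0.25), AURKB (-0.29), UBE2C (-0.36) and TTK (-0.26) were lower, and NUSAP1 (0.33) higher.

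Lineage and adhesion genes were mixed. Neuronal genes had 11 of 26 lower and 4 higher (median -0.22, range -2.16 to 0.41). RAB3A, the microtubule-binding STMN3 (-0.46) and MAP1B (-0.31) were lower and VAMP2 (0.29) higher. Cadherins and protocadherins had 7 of 19 lower and 1 higher, among them PCDH19, CDH1 (-0.77), CDH7 (-0.55) and PCDH9 (-0.52). Extracellular matrix genes had 8 of 30 higher and 11 lower, COL4A5 (0.47) and FN1 (0.29) higher and SPARC and COL2A1 (-0.45) lower. HOX genes had 11 of 31 higher and 7 lower, with log2 differences from -0.60 to 0.78. The median of this list changes sign with scaling by library totals. HOXA11 (-0.39), HOXA10 (-0.36) and HOXB2 (-0.41) were lower beside HOXA13, and the 11 higher members are not named here. Interferon-stimulated genes had 5 of 29 higher (17.2%) and 6 lower (20.7%), shares near the 17.3% and 19.7% of all genes tested, with the signal transducer STAT2 (0.35) higher and BST2 lower. BMP and ID genes had 4 of 15 higher and 2 lower, with ID3 (0.46), ID2 (0.30) and ID4 (0.21) higher and HEY1 (-0.52) lower. YAP-TEAD targets had 1 of 18 higher, CCN1 (0.31), and 3 lower, NUAK2 (-0.64), WWC1 (-0.14) and ARHGEF17 (-0.17). ARHGEF17 overlapped between groups and was not called under 5 of the alternative settings, nor WWC1 without FL replicate 1 or ΔE8 replicate 3. The MYC network had 1 of 12 higher, MLXIP (0.22), and 2 lower, MLX (-0.23) and MXI1 (-0.11), the last of which passed narrowly (edgeR adjusted p = 0.047) and not under 9 of the alternative settings.

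**Figure D4:**
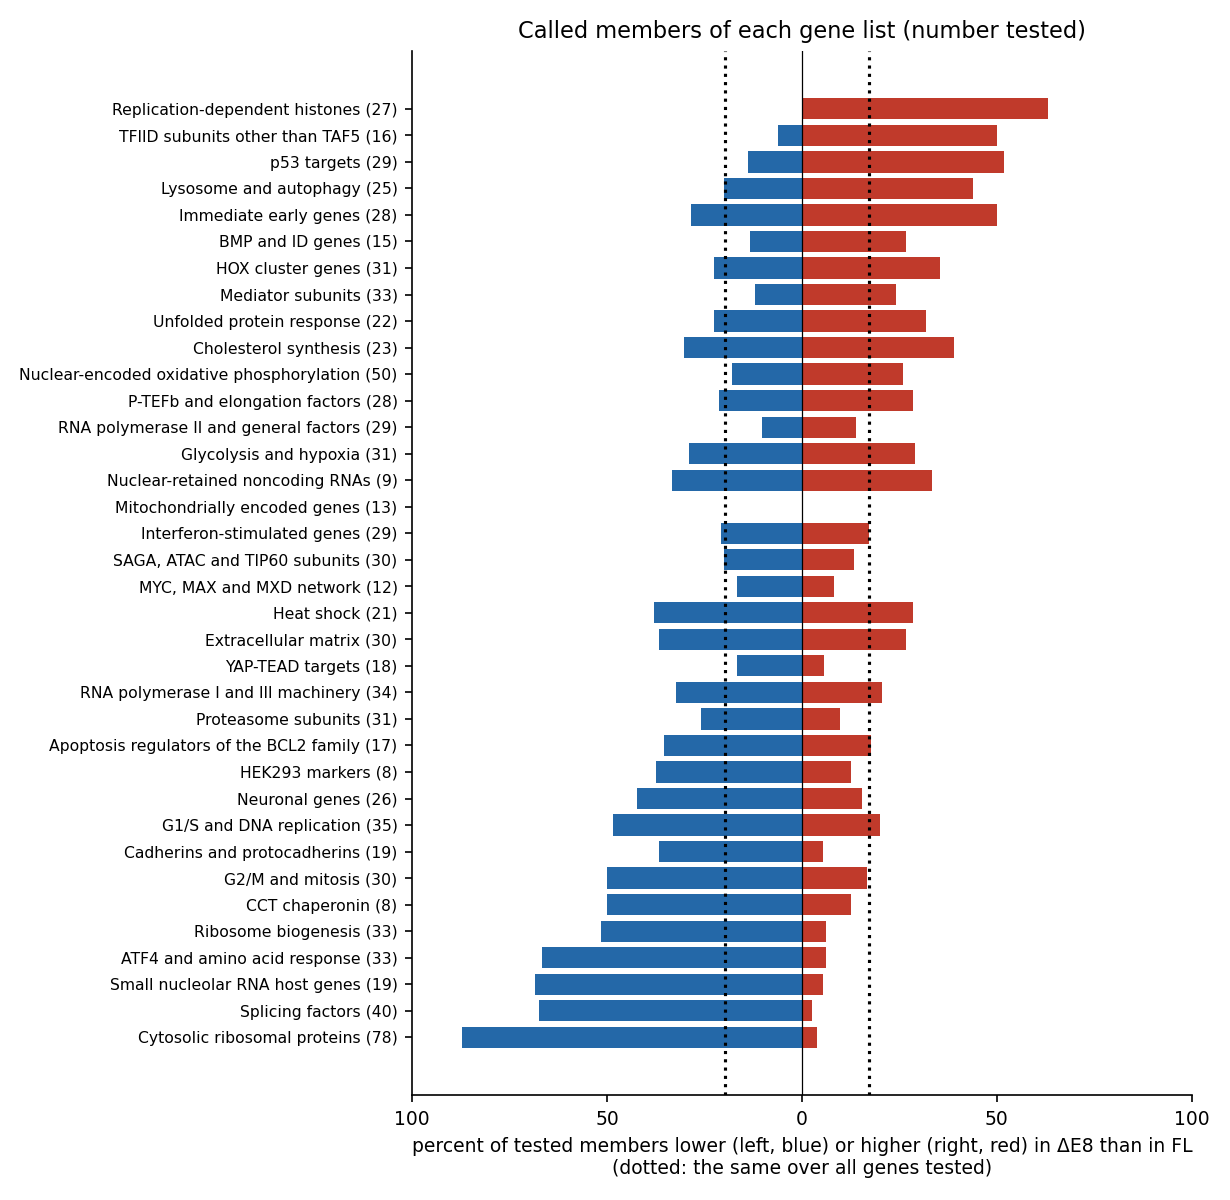
Percent of the tested members of each gene list (number in brackets) that were higher (red, right) or lower (blue, left) in ΔE8 than in FL, with dotted lines at 17.3% and 19.7%, the shares over all genes tested. Histone genes at the top have 17 of 27 members higher and none lower, and cytosolic ribosomal proteins at the bottom have 68 of 78 lower.

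Markers of the line and of other cell types were checked in the same libraries. All 8 HEK293 markers passed the filter, and their summed level was 2098 to 2156 CPM in FL and 2382 to 2452 in ΔE8, with the intermediate filament VIM higher (0.37) and KRT8 (-0.19), KRT18 (-0.10) and PAX2 (-0.24) lower. PAX2 (edgeR adjusted p = 0.04) overlapped between groups and was not called under 7 of the alternative settings, DESeq2 and limma-voom included, and KRT18 was not called without ΔE8 replicate 2. Keratin-rich epithelial markers summed to 169.6 to 179 CPM in FL and 144 to 149 in ΔE8, with 3 of 7 tested lower (CDH1, EPCAM -0.36 and KRT19 -0.12) and 0 higher, also 0 at an unadjusted p under 0.05 and by DESeq2 and limma-voom; KRT14 was at 0 in all 6 libraries. Blood markers summed to 9.63 to 10.2 CPM in FL and 6.56 to 7.71 in ΔE8, nearly all HBA1 (-0.47), and CD3E was at 0 in all 6. Fibroblast markers summed to 10.3 to 11.98 CPM and 10.6 to 10.7 CPM, with COL3A1 lower (-0.71). Over all genes tested 17.3% were higher and 19.7% lower. The part of these marker shifts in the other results was not tested.

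Knockdown and isoform differences were set side by side, since siTAF5 against siNT and ΔE8 against FL share no library. Of the 4802 genes higher on knockdown 2553 (53.2%) were also higher in ΔE8 than in FL, which is 76.0% of the ΔE8-higher genes, beside 17.3% and 24.7% of all genes tested. Of the 4848 genes lower on knockdown 2887 (59.6%) were lower in ΔE8, which is 75.6% of the ΔE8-lower genes, beside 19.7% and 25.0%. In opposite directions were 82 genes higher on knockdown and lower in ΔE8, and 67 lower on knockdown and higher in ΔE8. These opposed counts depended on single libraries: the 82 became 54 without FL replicate 2 or FL replicate 3, 47 and 44 without ΔE8 replicates 1 and 2, and 45, 42 and 47 without siTAF5 replicates 1, 2 and 3, and the 67 became 42 without FL replicate 3. At 1.5-fold or more in both comparisons 224 genes were higher in both, 164 lower in both and 4 opposed. Over genes at least 1.5-fold higher on knockdown the median log2 difference of ΔE8 against FL was 0.45, and over those at least 1.5-fold lower -0.43. Across the 19424 genes Pearson's r of the log2 differences was 0.515 and Spearman's rho 0.609, given as a description, since genes are not independent replicates and many are low.

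**Figure D5:**
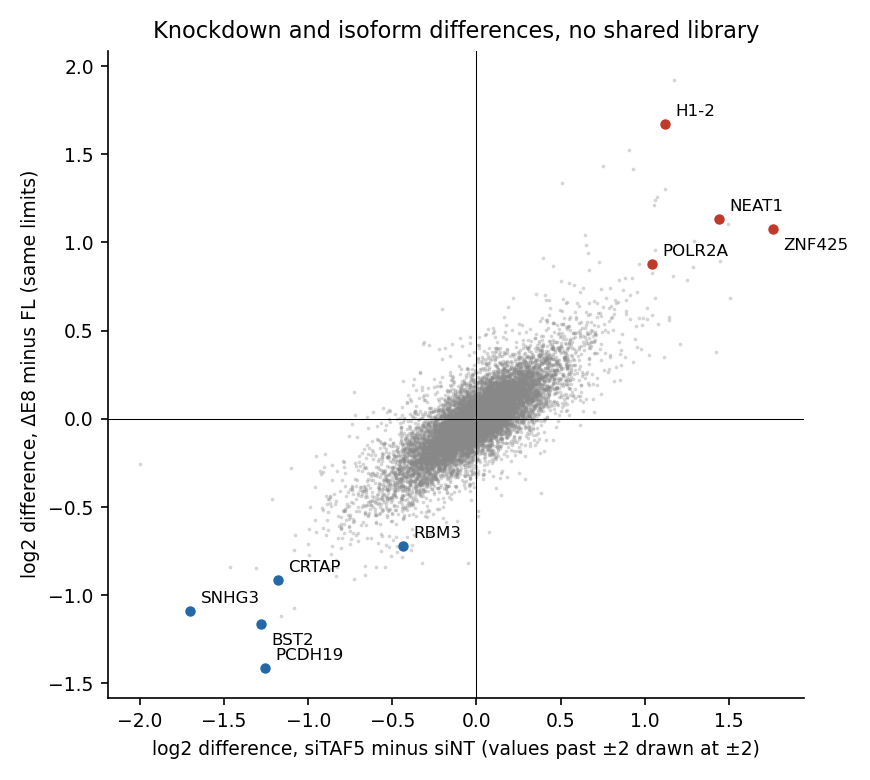
Log2 difference of ΔE8 against FL (vertical axis) and of siTAF5 against siNT (horizontal axis) for 12315 genes averaging 2 or more in log2 CPM, values past 2 drawn at 2 in either direction, with 4 higher genes in red and 5 lower genes in blue. The cloud runs from lower left to upper right, with H1-2, POLR2A, NEAT1 and ZNF425 at one end and SNHG3, PCDH19, BST2 and CRTAP at the other, and RBM3 nearer the centre on the knockdown axis.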

How the data were processed

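Polyadenylated RNA of 12 libraries in 4 groups of 3 was sequenced with a strand-marking kit, per the labels' protocols. The deposited table holds estimated counts per gene made by the authors, on hg38 with STAR 2.7.0f, cutadapt 1.18, DESeq2 and Partek 10.0.23.0531 among the tools, per the submitters' processing notes. Of its entries 46.5% were not whole, so the counts, which the design had taken as whole, were rounded, moving no library total by more than 91.27. Of 32010 genes 19424 passed edgeR's filterByExpr (minimum count 10).

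One edgeR 4.0.16 quasi-likelihood fit (R 4.3.3, TMM scaling) covered all 12 libraries, and p-values were adjusted over all genes tested. DESeq2 1.42.0, limma-voom (limma 3.58.1) and the other settings of the closing section were alternatives. The fit was tested on simulated data.

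Genes were named by rule: TAF5, TFIID and CCT members, the 12 largest and the 6 most abundant changes in each direction (called, no overlap, average log2 CPM of at least 2 or at least 1.5-fold), up to 4 members of a list with the smallest adjusted p, and, of the genes that FL and ΔE8 moved in opposite directions from siTAF5 without overlap among the 3 groups, the 6 with the largest difference between ΔE8 and FL. Further list members were named after their values were seen, to show the exceptions in a list. Gene lists and members were chosen with earlier results of these data known. Promoters on chromosome 8 and of mitochondrial genes were left out. Replicate numbers did not pair libraries: deviations of same-numbered FL and ΔE8 libraries correlated at 0.03, 0.019 and -0.015. Single values of some list members are not reported here.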

Additional observations from a re-analysis of the deposited data

Results flagged for a closer look

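Against the same 3 siTAF5 libraries, FL and ΔE8 moved 400 genes with an average log2 CPM of 2 or more in opposite directions, past the edgeR threshold in both comparisons and in ΔE8 against FL and without overlap among the 3 groups. In 201 of them FL was higher and ΔE8 lower than siTAF5, and in 199 the reverse. POLR2A and HEXIM1 are among the 199, and the 6 described here have the largest differences between ΔE8 and FL. These comparisons share the siTAF5 libraries, and they called 48.8% (FL) and 40.6% (ΔE8) of all genes tested, so the levels are given side by side. PCDH19, a protocadherin, had 20.9, 22.04 and 21.3 CPM in FL, against 11.8, 11.7 and 12.97 with knockdown alone and 7.43, 9.12 and 7.41 in ΔE8, a log2 difference of -1.415 between ΔE8 and FL. CRTAP, of collagen modification, had 179.9, 172 and 167 CPM in FL, against 110.2, 114 and 108 with knockdown alone and 92.9, 93.9 and 88.5 in ΔE8 (log2 difference -0.9135). IKZF3, a lymphoid zinc finger gene, had 12.4, 12.9 and 12.3 CPM in FL, against 8.54, 8.88 and 8.67 with knockdown alone and 6.91, 6.91 and 6.08 in ΔE8 (log2 difference -0.9094). In these 3 genes FL lay above siTAF5 and ΔE8 below it.

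RAB3A, a vesicle GTPase, had 5.05, 5.08 and 4.57 CPM in FL, against 4.24, 3.59 and 4.00 with knockdown alone and 2.71, 2.71 and 2.44 in ΔE8 (log2 difference -0.8981), and it overlaps MPV17L2 on the opposite strand. ZNF425, a zinc finger gene, had 6.56, 7.19 and 6.89 CPM in FL, against 11.4, 10.2 and 11.4 with knockdown alone and 15.1, 13.9 and 14.3 in ΔE8 (log2 difference 1.074). H4C8, a histone H4 gene, had 3.53, 4.06 and 4.29 CPM in FL, against 5.86, 6.35 and 6.70 with knockdown alone and 6.88, 7.70 and 7.34 in ΔE8 (log2 difference 0.8923). In the last 2 genes ΔE8 lay above siTAF5 and FL below it.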

How the results depend on the processing

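Of 191 named genes 172 were called, and 89 of these kept their direction and call under every alternative run. The other 83 lost the call under at least the test against a minimum of 1.2-fold, and 0 called genes changed direction. Against that minimum 422 genes were higher and 467 lower, 195 and 176 of them at least 1.5-fold, 340 and 349 were called the same way on knockdown, 0 and 0 the opposite way, and the TAF5 log2 difference of -0.2571 had an edgeR adjusted p of 1. With a minimum count of 50, 15341 genes were tested and 220 were at least 1.5-fold lower. Without a low-count filter 50 genes were higher on knockdown and lower in ΔE8. The cause of these changes was not tested. DESeq2 called 3070 higher and 3323 lower. Leaving out 1 library in turn gave 42 to 81 genes higher on knockdown and lower in ΔE8, and 42 to 97 the reverse. The lowest of the first came without siTAF5 replicate 2, of the second without FL replicate 3. With TATAAA counted anywhere in the 300 bases, 4.09% of all promoters, 4.57% of higher, 3.1% of lower and 4.35% of the rest held it.

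Genes that were not called changed sign in places: with library totals TAF10 stood at 0.01185, CCT4 at 0.0105 and CCT8 at 0.008968, and leaving out 1 library moved CCT8 from -0.023 to 0.002189, CD14 from -0.3046 to 0.2345, COL1A1 from -0.1074 to 0.01908, TAF10 from -0.04058 to 0.0443 and TAF13 from -0.02031 to 0.06826. Depth limits low genes such as CD14 most. With the replicate number as a block, 3469 genes were higher and 3940 lower, sharing 98.9% of the calls made without it.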

Other observations

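Long noncoding RNA genes differed from protein-coding genes in direction. Of 3306 tested 383 were higher in ΔE8 (11.6%) and 180 lower (5.44%), with a median log2 difference of 0.088, whereas of 14637 protein-coding genes 2888 were higher (19.7%) and 3522 lower (24.1%), with a median of -0.018. The noncoding genes were also much lower in level, with a median of 0.60 CPM against 28.3. Of 1260 pseudogenes 63 were higher (5%) and 103 lower (8.17%).

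Chromosomes differed in their split of calls. On chromosome 21 there were 63 higher (26.1%) and 29 lower (12%) genes of 241 tested, beside 17.3% and 19.7% of all genes tested. Chromosome 13 had 81 (22.4%) and 44 (12.2%) of 362. The balance was the other way on chromosome 19, with 172 higher (12.4%) and 349 lower (25.2%) of 1385. The same held for chromosome X, with 85 (13.7%) and 167 (26.8%) of 622. Higher genes had a median span of 33.1 kb and lower genes 28.3 kb, beside 25.0 kb over all genes tested. These values are descriptions, with no test.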
